A study of Mus musculus with 8 samples.

Results

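The MYC, MAX and MXD network is a family of transcription factors that pair with one another to bind DNA. MYC proteins form dimers with MAX and activate genes of ribosome production, nucleotide synthesis and cell cycle entry. MXD proteins and MNT compete for MAX and repress an overlapping set of genes through SIN3 corepressors. Both kinds of dimer bind the E-box, a short palindromic DNA element. MLX, a relative of MAX, pairs with the glucose-responsive factors MondoA and ChREBP and with some of the MXD proteins. Myc is a known target gene of β-catenin and its TCF/LEF partners in the intestine.

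The 10 genes described here, Myc, Mycn, Mycl, Max, Mxd1, Mxd3, Mxd4, Mxi1, Mnt and Mlx, were taken from the 25428 gene rows of the arrays by symbol alone, and all 10 were found. Gene expression was measured on arrays in liver sinusoidal endothelial cells (LSECs), the fenestrated endothelium of the liver. The 4 Ctrl samples came from mice that the study calls wild-type controls. The 4 Ctnnb1OE-EC samples came from mice that carry the Ctnnb1(Ex3) fl/wt allele together with the Clec4g-iCre tg/wt transgene. In these mice Cre removes an exon that β-catenin needs for its degradation. All mice were female, of strain C57BL/6J and 2 months old, and cells of 2 mice were pooled for each sample. The cells were isolated with CD146 beads, and RNA was taken directly afterwards. The Clec4g promoter drives Cre in LSECs, and the study describes activity in cardiac endothelium and impaired heart function in these mice as well. The labels of both groups do not state whether the controls carried the Cre transgene or the floxed allele.

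All 10 LSEC markers and all 8 pan-endothelial markers lay above the array background in every sample, where background means the 95th percentile of the olfactory receptor rows (3.60 to 3.83 on the log2 scale). The mean of the LSEC markers was lower in all 4 Ctnnb1OE-EC samples, with deviations of -0.38, -0.15, -0.32 and -0.31 from the Ctrl mean on the log2 scale, against -0.03 to 0.08 in Ctrl. Of these markers 8 were lower and 2 higher, and Lyve1, the hyaluronan receptor, fell past the threshold (log2 fold change -1.78, adjusted p = 0.0178 in limma). The Ctnnb1 row rose by 0.34 on the log2 scale (SE 0.13) with adjusted p = 0.361 in limma, but it does not resolve the removed exon. A first principal component with 30.6% of the variance set Ctnnb1OE-EC replicates 3 and 4 off from the other 6 samples. In these 2 samples the means of the adrenal cortex and the neutrophil and monocyte marker lists were also high, so values without them are given for Myc, Mycn, Mxi1 and other genes below.

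The 4 Ctrl samples gave log2 values for Myc, the founding member of the family, of 5.96, 6.04, 5.82 and 5.91. The Ctnnb1OE-EC samples gave 7.79, 7.38, 8.71 and 8.71. Every Ctnnb1OE-EC sample lay above every Ctrl sample, and replicates 3 and 4 were the highest. Myc (chromosome 15, 61985341 to 61990361, GRCm38.p6) was 4.65-fold higher in Ctnnb1OE-EC, with a 95% interval from 2.99 to 7.24 (log2 fold change 2.22, SE 0.28, n = 4 in each group, adjusted p = 0.00919 in limma). The exact permutation test gave p = 0.0286, the smallest value that 4 samples against 4 allow. Without replicates 3 and 4 the log2 fold change was 1.65 (adjusted p = 0.0116 in limma).

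Mycn encodes the paralog best known from embryonic tissues and neuroblastoma, and it moved the same way as Myc. Its Ctrl samples lay close together at 4.43, 4.43, 4.57 and 4.44, which is above the array background. The Ctnnb1OE-EC samples gave 6.57, 5.75, 5.98 and 5.39, again without overlap. Mycn (chromosome 12, 12936093 to 12941836) was 2.75-fold higher, with a 95% interval from 1.96 to 3.84 (log2 fold change 1.46, SE 0.21, adjusted p = 0.0175 in limma, exact permutation p = 0.0286). The order of the samples differed from that of Myc. Ctnnb1OE-EC replicate 1, with 2.11 above the Ctrl mean on the log2 scale, was the highest for Mycn, and replicate 4, with 0.93, the lowest. Without replicates 3 and 4 the log2 fold change of Mycn was 1.69 (adjusted p = 0.0426 in limma). The call was lost when Ctrl replicate 1, 2 or 4 or Ctnnb1OE-EC replicate 3 was left out, with adjusted p = 0.0641, 0.0587, 0.0663 and 0.0667 in limma, while the log2 fold change stayed between 1.24 and 1.63 over all 8 samples left out in turn.

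Mycl, the third paralog, was not above background in either group. It ranged from 2.73 to 2.94 in Ctrl and from 2.67 to 3.21 in Ctnnb1OE-EC. Of the MYC paralogs, Myc and Mycn were therefore the ones with a measured difference, and Mycl gave no level to compare.

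Over the whole network, 2 of 10 members passed the adjusted threshold of 0.05, both higher in Ctnnb1OE-EC and 0 lower. Among all 25428 rows, 0.920% passed it, 0.535% higher and 0.385% lower. The same 2 members were those whose groups did not overlap, against 7.59% of all rows. The median log2 fold change over the 10 members was 0.03, beside -0.01 over all rows, with 5 members higher and 5 lower. By a plain analysis of variance with Benjamini-Hochberg adjustment, run here on the deposited values after the kind of test named in the study's methods, 0 members passed, 2 had an unadjusted p under 0.05, and 0.0787% of all rows passed. That run is not the study's own, whose settings may differ. In it Myc had adjusted p = 0.0945 and Mycn adjusted p = 0.122. These p-values measure the spread between pools of 2 mice.

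**Figure D1:**
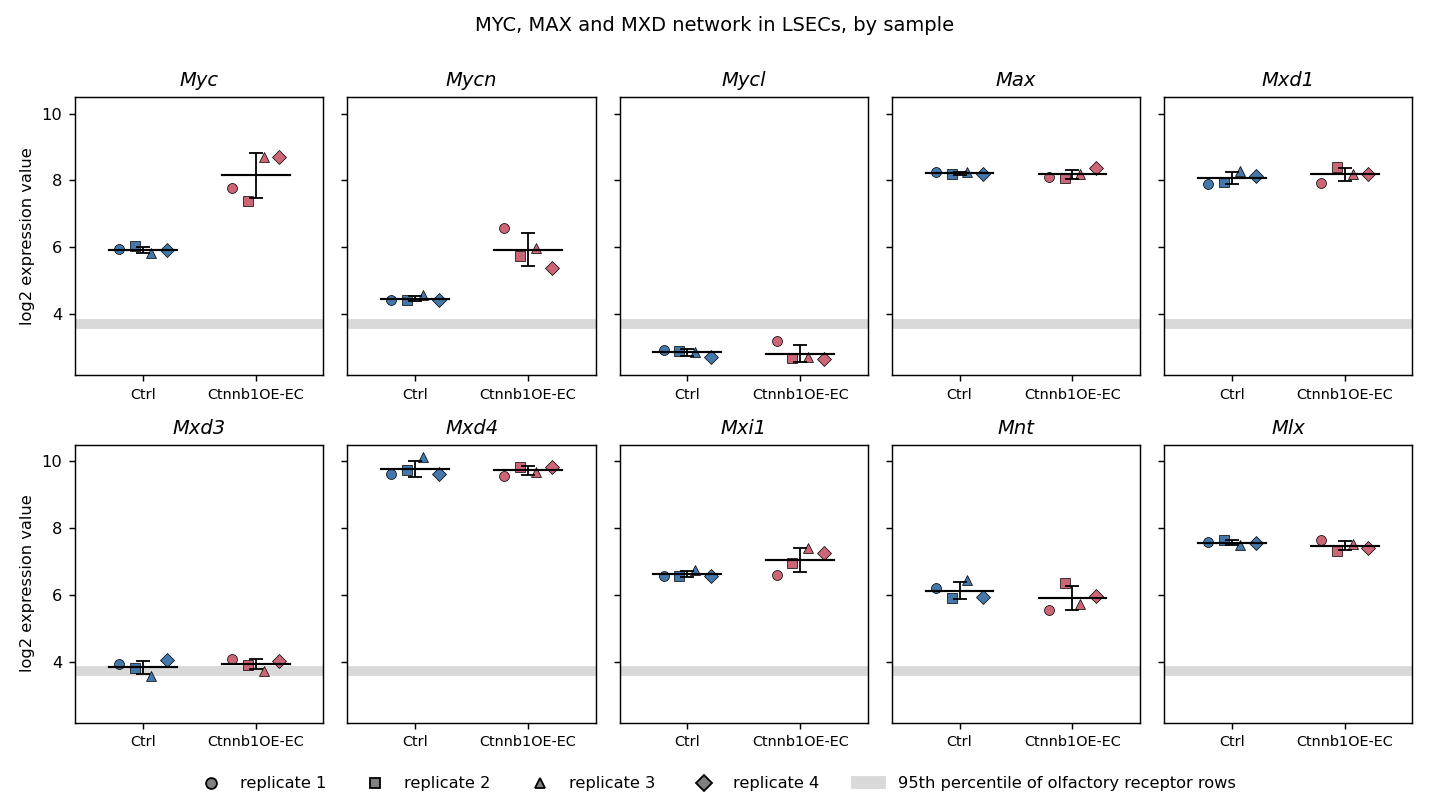
Log2 expression value (vertical axis) of each of the 10 network members in every sample, with the mean and SD of each group of 4 as black bars and the array background as a grey band. Myc and Mycn were separated between the groups, Mycl lay under the background band, and the other members overlapped.

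Max encodes the obligate partner of the MYC proteins and a partner of the MXD proteins. Its Ctrl samples gave 8.25, 8.19, 8.26 and 8.18, and its Ctnnb1OE-EC samples 8.12, 8.08, 8.19 and 8.38. The groups overlapped, with a log2 fold change of -0.03 and a 95% interval from -0.24 to 0.18 (adjusted p = 0.944 in limma), and without replicates 3 and 4 it was -0.12. The interval leaves room for a difference of that size in either direction, but not for one as large as that of Myc or Mycn. Max lies on chromosome 12 (76937269 to 76962323), the same chromosome as Mycn.

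The antagonists of MYC were measured less precisely than Max (SE 0.09), with SE from 0.12 (Mxd3) to 0.19 (Mnt). Mxd1, which is induced when myeloid and epithelial cells differentiate, gave 7.90, 7.96, 8.29 and 8.13 in Ctrl and 7.93, 8.39, 8.19 and 8.20 in Ctnnb1OE-EC, with a log2 fold change of 0.11 (95% interval from -0.18 to 0.40). Mxd4 gave 9.62, 9.72, 10.11 and 9.61 in Ctrl and 9.56, 9.82, 9.67 and 9.82 in Ctnnb1OE-EC, with a log2 fold change of -0.05 (95% interval from -0.34 to 0.24). Both genes overlapped between the groups. Mxd3, a member linked to proliferating cells, ranged from 3.59 to 4.04 in Ctrl and from 3.74 to 4.09 in Ctnnb1OE-EC. These values lie at the edge of the background, so the log2 fold change of 0.10 (adjusted p = 0.834 in limma), or 0.16 without replicates 3 and 4, says little about the transcript.

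Mnt encodes the broadly expressed MAX-binding repressor. It gave 6.19, 5.90, 6.45 and 5.95 in Ctrl and 5.54, 6.36, 5.73 and 5.96 in Ctnnb1OE-EC. The log2 fold change was -0.22 with a 95% interval from -0.65 to 0.21 (adjusted p = 0.731 in limma). Of the 10 members Mnt had the widest spread within Ctrl (SD 0.25). The groups overlapped in part, with the Ctnnb1OE-EC values of 5.54 and 5.73 below every Ctrl sample. Mlx, the partner of the glucose-responsive factors, gave 7.59, 7.64, 7.48 and 7.55 in Ctrl and 7.64, 7.31, 7.51 and 7.41 in Ctnnb1OE-EC, with a log2 fold change of -0.10 (95% interval from -0.31 to 0.12).

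Mxi1 encodes an MXD family repressor of MYC target genes that is also known to be induced by hypoxia. It was the one antagonist below an unadjusted p of 0.05 in limma, as were 11.5% of all rows, and it did not pass the adjusted threshold (adjusted p = 0.350 in limma). The Ctrl samples gave 6.58, 6.57, 6.74 and 6.55. The Ctnnb1OE-EC samples gave 6.60, 6.95, 7.41 and 7.26. Replicate 1 lay among the Ctrl samples and the other 3 above them, so the groups overlapped by 1 sample. The log2 fold change was 0.44 (95% interval from 0.07 to 0.82, exact permutation p = 0.0571), and 0.16 without replicates 3 and 4 (adjusted p = 0.726 in limma).

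**Figure D2:**
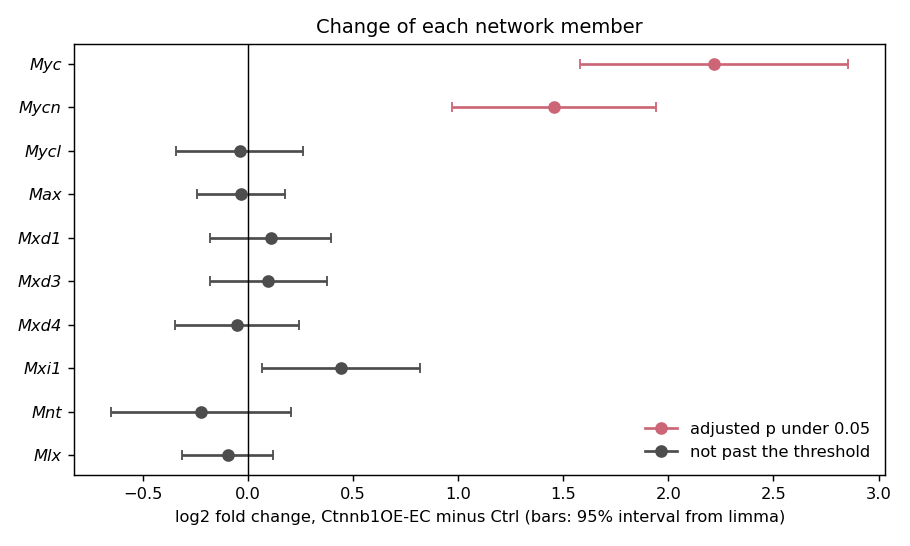
Log2 fold change, Ctnnb1OE-EC minus Ctrl (horizontal axis), of each member with its 95% interval from limma (n = 4 in each group). Myc at 2.22 and Mycn at 1.46 lie apart from the other 8 members, which range from -0.22 to 0.44.

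The E-box and the TCF/LEF core were looked for in the promoters of these genes, since they are the DNA elements of the network itself and of β-catenin's partners. The windows held 300 bases, 250 before and 50 from each RefSeq start site on, in the build GRCm38.p6. Such windows were found for 9 of the 10 members, Myc being the one not analysed here. The E-box CACGTG, which reads the same on both strands, was in the windows of 4 of these 9 genes, Max, Mlx, Mnt and Mxd4, and of 8.09% of 27025 genes (7.15% of 32851 windows). The TCF/LEF core CTTTGA, searched on both strands, was in the window of 1 of the 9, Mycn, and of 18.2% of all genes. None of the 30-base stretches printed here holds both motifs. The stretches of 30 bases around each E-box (CACGTG in capitals) and around the TCF/LEF core of Mycn (TCAAAG in capitals, the core read from the opposite strand) are printed 5′ to 3′ on the gene's strand, since they carry that contrast between the member with a TCF/LEF core and those with an E-box.
Max, chr12:76962234-76962263, minus strand: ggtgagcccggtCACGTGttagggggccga
Mlx, chr11:101087238-101087267, plus strand: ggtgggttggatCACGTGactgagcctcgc
Mnt, chr11:74830789-74830818, plus strand: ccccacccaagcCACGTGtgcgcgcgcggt
Mxd4, chr5:34187912-34187941, minus strand: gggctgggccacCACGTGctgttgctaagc
Mycn, chr12:12941832-12941861, minus strand: atcccccgagctTCAAAGcgcagccagtga
The first base of the E-box lay 3 bases before the start site in Max, 40 in Mlx, 123 in Mnt and 219 in Mxd4, and that of the TCF/LEF core 13 bases before it in Mycn. None of the 4 members with an E-box passed the threshold, and neither did Mxd1, Mxd3, Mxi1 or Mycl, whose windows held neither motif. A match of letters shows neither binding nor its absence.

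The partners of the network outside the 10 members were Mga, a MAX-binding repressor, Mlxip (MondoA) and Mlxipl (ChREBP). None of the 3 passed the threshold, with log2 fold changes of 0.06, -0.35 and -0.02. Mlxip gave 9.84 in Ctrl replicate 3 and between 8.49 and 8.67 in the other Ctrl samples.

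Of 12 measured cofactors that MYC uses at chromatin, 0 passed the adjusted threshold. The mean was higher in Ctnnb1OE-EC for 10 of them (83.3%), beside 46.4% of all rows, and lower for 2. All 12 lay above background in Ctrl, while 56.9% of all rows did. The list was chosen with earlier results of these data known, so its counts are no independent evidence of a direction. The median log2 fold change was 0.10, and 0.06 to 0.14 with 1 sample left out, beside -0.01 over all rows. An unadjusted p under 0.05 was found for Ruvbl1 and Ruvbl2, the paired ATPases of the TIP60 and INO80 complexes, and for Kat2a, the GCN5 acetyltransferase. Ruvbl1 gave 7.13, 7.21, 7.15 and 7.31 in Ctrl and 7.56, 7.61, 7.44 and 7.65 in Ctnnb1OE-EC (log2 fold change 0.37, SE 0.09, adjusted p = 0.126 in limma). Kat2a gave 7.77, 7.86, 7.58 and 7.59 against 7.97, 8.13, 8.14 and 8.12 (log2 fold change 0.39, SE 0.10, adjusted p = 0.137 in limma). For Ruvbl2 it was 0.24 (adjusted p = 0.309 in limma). In these 3 genes the groups did not overlap, which held for 7.59% of all rows.

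Corepressors that MXD and MNT recruit to histones were also counted. Of 8 measured, 4 were higher and 4 lower, with a median of 0.01 and log2 fold changes from -0.20 (Sap18) to 0.18 (Rbbp7). Of 11 genes that set the stability of the MYC protein, 6 were higher and 5 lower, and 0 passed the threshold. The smallest p among them belonged to Usp28, a deubiquitinase that protects MYC, with a log2 fold change of 0.36 (adjusted p = 0.473 in limma). Fbxw7, the ubiquitin ligase subunit that marks MYC for destruction, came to -0.07 on the log2 scale, with adjusted p = 0.882. The arrays measure RNA, so the amount of MYC protein was not measured.

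Genes known to be activated by MYC serve ribosome production, nucleotide and amino acid supply and cell division. Of 35 measured, 27 (77.1%) had the higher mean in Ctnnb1OE-EC, beside 46.4% of all rows, and the median log2 fold change was 0.18, beside -0.01. At an unadjusted p under 0.05, 10 (28.6%) were higher and 1 was lower, beside 5.49% and 6.02% of all rows. In 8 (22.9%) the groups did not overlap, beside 7.59%. At the adjusted threshold 2 of 35 rose, beside 0.535%. Of the 35 genes, 32 lay above background in Ctrl, while 56.9% of all rows did, so the list and all rows differ in their levels. The list was written with earlier results of these samples known and holds genes that had already been seen to change, so its counts are no independent evidence of a direction.

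The first of the 2 was Slc1a5, the ASCT2 transporter that brings glutamine into cells. It gave 5.41, 5.09, 4.75 and 5.21 in Ctrl and 6.23, 6.74, 7.74 and 7.98 in Ctnnb1OE-EC, with replicates 3 and 4 highest, as for Myc. The log2 fold change was 2.06 (SE 0.36, adjusted p = 0.0355 in limma), and 1.37 without replicates 3 and 4 (adjusted p = 0.0909). The second was Fbl, the methyltransferase fibrillarin of the nucleolus, which gave 6.32, 6.56, 6.31 and 6.67 in Ctrl and 7.27, 7.23, 7.29 and 7.06 in Ctnnb1OE-EC. Its log2 fold change was 0.75 (SE 0.11, adjusted p = 0.0188 in limma), and 0.78 without replicates 3 and 4 (adjusted p = 0.122). Neither call held with each sample left out in turn. Slc1a5 lost it whenever 1 sample other than Ctnnb1OE-EC replicate 1 was left out (adjusted p from 0.0502 to 0.117 in limma). Fbl lost it without Ctrl replicate 1, 2 or 3 or Ctnnb1OE-EC replicate 1 or 3 (adjusted p from 0.0509 to 0.0716 in limma).

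Cdk4, the kinase that drives cells out of G1, had tight groups of 9.88, 9.96, 9.77 and 9.75 in Ctrl and 10.23, 10.26, 10.29 and 10.23 in Ctnnb1OE-EC. The log2 fold change was 0.41 (SE 0.08, adjusted p = 0.0720 in limma), so a separated difference missed the threshold. For Srm, the spermidine synthase, the log2 fold change came to 0.63 with adjusted p = 0.181 in limma. Odc1, the enzyme before it in polyamine synthesis, had one of 0.11 (SE 0.34, adjusted p = 0.944 in limma). The 1 gene that was lower at an unadjusted p under 0.05 was Ddx18, an RNA helicase of the nucleolus (log2 fold change -0.44, SE 0.14, adjusted p = 0.238 in limma).

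**Figure D3:**
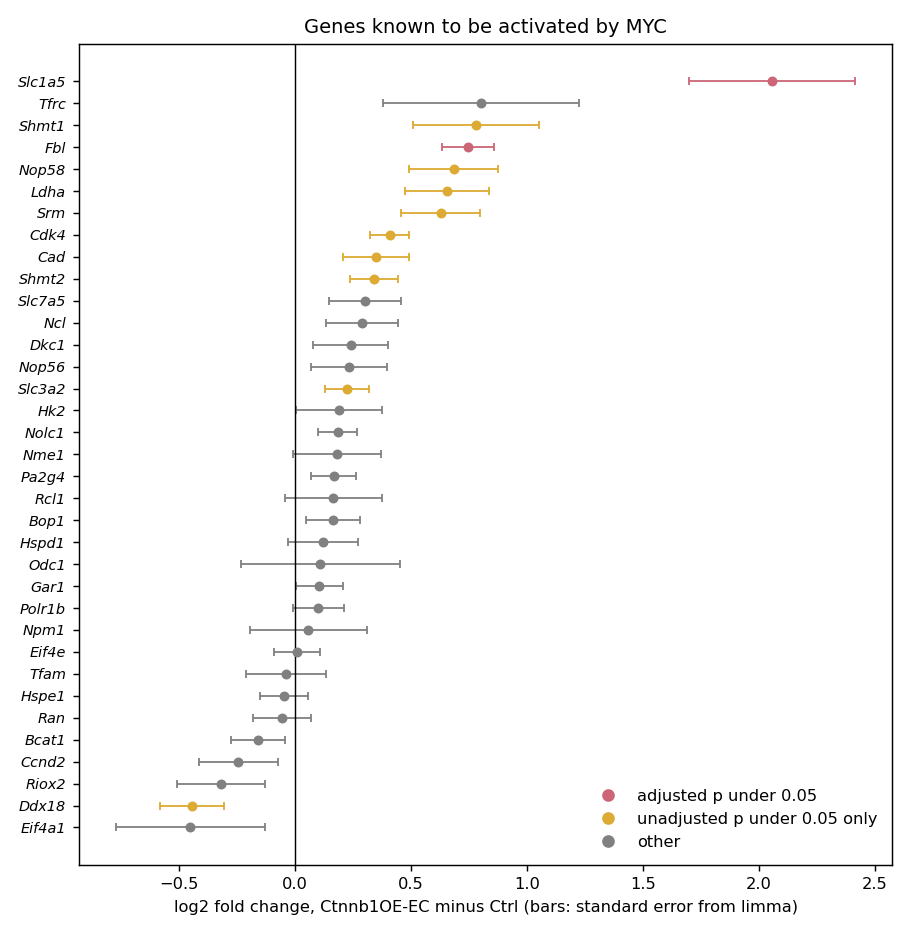
Log2 fold change, Ctnnb1OE-EC minus Ctrl (horizontal axis), of the 35 measured genes known to be activated by MYC, with the standard error from limma as bars. Most points lie right of 0, 2 of them (Slc1a5 and Fbl) past the adjusted threshold.

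Promoter windows were found for 28 of the 36 listed targets, and 7 of them held an E-box. The 7 had a median log2 fold change of 0.12 and the 21 without an E-box one of 0.18. The TCF/LEF core was in the windows of 5 of the 28 targets (17.9%), beside 18.2% of all genes. Cdk4 held the most E-boxes, with 4 that begin 172, 118, 98 and 11 bases before the start site. Its window also holds 1 TCF/LEF core (tcaaag), which is left in small letters below. The 250 bases before that start (chr10:127063285-127063534, plus strand, GRCm38.p6) are printed because they show the spacing of the network's element in a target whose groups were separated, with the E-boxes in capitals.
Cdk4: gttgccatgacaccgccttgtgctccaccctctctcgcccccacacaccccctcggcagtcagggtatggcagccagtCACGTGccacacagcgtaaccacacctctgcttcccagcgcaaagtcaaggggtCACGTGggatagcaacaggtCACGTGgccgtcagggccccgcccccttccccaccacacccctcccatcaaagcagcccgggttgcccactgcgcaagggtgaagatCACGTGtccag

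Genes known to be repressed by MYC include inhibitors of the cell cycle. Of 10 measured, 7 were higher and 3 lower, with a median log2 fold change of 0.04 that ran from -0.09 to 0.09 with 1 sample left out, and 0 passed the adjusted threshold. Cdkn1a, the cell cycle inhibitor p21, ranged from 8.92 to 9.31 in Ctrl and gave 9.64, 9.79, 9.26 and 10.07 in Ctnnb1OE-EC, with an overlap of 1 sample (log2 fold change 0.59, adjusted p = 0.206 in limma). For Ndrg1, a gene of differentiated cells, the log2 fold change came to -0.51 with adjusted p = 0.307 in limma. Among 6 targets of MondoA, ChREBP and MLX, 2 were higher and 4 lower, and 0 passed. Thrsp, a lipogenic gene, came to -1.36 on the log2 scale, with adjusted p = 0.163 in limma, while Fasn, the fatty acid synthase, had one of 1.09 (adjusted p = 0.197). Without Ctrl replicate 4, Fasn passed (log2 fold change 1.40, adjusted p = 0.0347 in limma). Txnip, the best known MondoA target, had one of -0.19 (adjusted p = 0.485).

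Other gene groups moved along with parts of the network. As the mean over 7 measured genes, nuclear partners and feedback genes of β-catenin were higher in each Ctnnb1OE-EC sample. In replicates 1 to 4 this mean deviated by 1.31, 1.08, 1.23 and 1.14 on the log2 scale. Of the 7 genes, 5 were higher and 2 lower. Past the adjusted threshold 4 rose, beside 0.535% of all rows, namely Axin2, Apcdd1, Lef1 and Bambi. This list too was chosen with earlier results of these data known. The hypoxia list (16 genes, 12 higher, 0 past the adjusted threshold) deviated by -0.18, 0.37, 0.91 and 1.13, against -0.16 to 0.18 in Ctrl. Mxi1 deviated by -0.01, 0.34, 0.80 and 0.65. Both had the lowest value in replicate 1 and the highest values in replicates 3 and 4. The part of hypoxia in the Mxi1 values was not tested. The proliferation list (15 of 15 higher, 0 past the adjusted threshold) deviated by 0.71, 0.69, 0.69 and 0.02, against -0.58 to 0.34 in Ctrl. It was lowest, and within the Ctrl range, in replicate 4, where Myc was among the highest and Mycn the lowest. The counts of higher genes in these lists stand beside 46.4% of all rows.

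Markers of other cells differed between the samples as well. Of the 8 neutrophil and monocyte markers, 7 were higher in Ctnnb1OE-EC, with summed linear values from 140.2 to 352 in Ctrl and from 229 to 1156 in Ctnnb1OE-EC. By group mean, 3 of the 8 lay above background in Ctrl and 6 in Ctnnb1OE-EC. Most of the highest sum, in Ctnnb1OE-EC replicate 4, came from Lcn2 (9.84 on the log2 scale). The 7 measured adrenal cortex markers were all higher, with summed linear values from 1200.1 to 1480.4 in Ctrl and from 1239 to 1930.4 in Ctnnb1OE-EC. Most of these sums came from Scarb1, with a Ctrl mean of 10.3 on the log2 scale and a log2 fold change of 0.08. By group mean, only 3 of the 7 lay above background in Ctrl. In Ctnnb1OE-EC replicates 1 to 4, 3, 2, 7 and 7 did. The mean of the list deviated by 2.46 and 1.64 on the log2 scale in replicates 3 and 4. All 8 smooth muscle markers were higher and Mylk passed the threshold, but Ctrl replicate 2 (1.55 above the Ctrl mean on the log2 scale) was as high as Ctnnb1OE-EC replicate 3 (1.53). The 7 measured hepatocyte markers were all lower, with summed linear values from 4204 to 11886 in Ctrl and from 2228 to 15852 in Ctnnb1OE-EC. All 7 lay above background in every sample of both groups. The 7 measured pancreatic acinar markers were also all lower, with a mean that spanned -2.44 to 2.31 on the log2 scale in Ctrl and -2.40 to 1.90 in Ctnnb1OE-EC. Immediate early genes, which respond to cell isolation, deviated by -0.15, 0.02, 1.25 and 0.52, against -0.31 to 0.53 in Ctrl. The part of these lists in the Myc, Mycn and Mxi1 values was not tested. In Ctnnb1OE-EC replicates 1 and 2 the adrenal cortex list lay at -0.22 and -0.10, the neutrophil and monocyte list at 0.26 and 0.02, the hepatocyte list at 1.36 and -0.06 and the acinar list at 1.90 and 0.32. In the same samples Myc was 1.85 and 1.45 above the Ctrl mean on the log2 scale and Mycn 2.11 and 1.28. In Ctnnb1OE-EC replicates 1 to 4 the B cell list deviated by 0.77, -0.39, 0.70 and -0.16, against -0.49 to 0.45 in Ctrl. The T and NK cell list deviated by 0.42, 0.31, -0.04 and -0.17, against -0.16 to 0.24 in Ctrl. Both were highest in replicate 1, as Mycn was. The Kupffer cell list deviated by 0.04, -1.24, -0.03 and 0.70, against -1.10 to 0.91 in Ctrl. The stellate cell list deviated by 0.15, 0.23, 0.42 and 0.08, against -1.28 to 0.56 in Ctrl. The part of these lists was not tested either. In RNA from a bulk isolation, fewer cells of a type and less RNA per cell cannot be told apart.

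**Figure D4:**
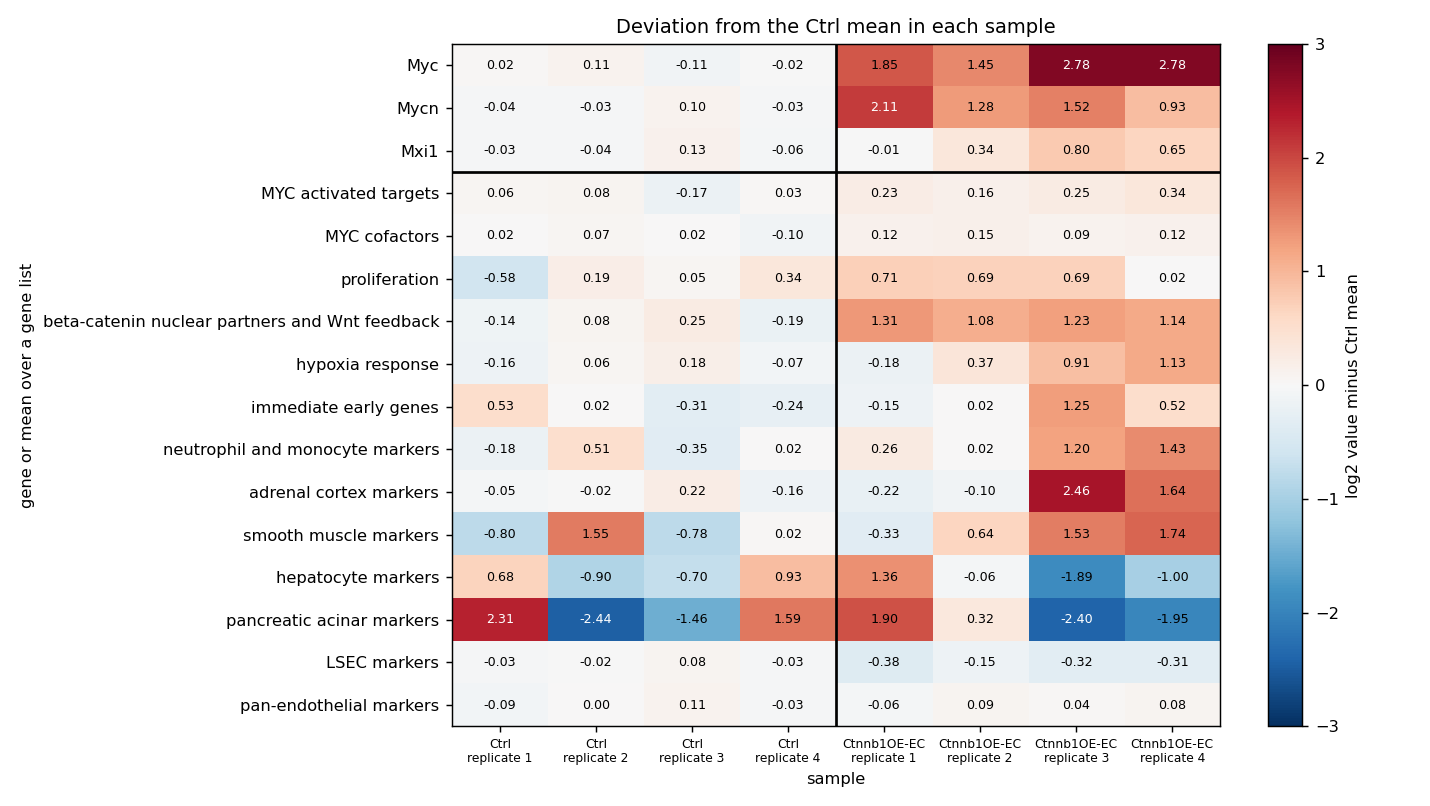
Log2 value minus the Ctrl mean (colour and printed number) of Myc, Mycn and Mxi1 and of the mean over each gene list, by sample (columns, 4 Ctrl and 4 Ctnnb1OE-EC). Myc and Mycn are raised in all 4 Ctnnb1OE-EC samples. Myc, Mxi1 and the hypoxia, adrenal cortex and neutrophil and monocyte lists are highest in replicates 3 and 4, whereas Mycn is not.

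The rows most like Myc over the 8 samples were sought by the root mean square difference after each row's Ctrl mean was subtracted. They were Fam13c, Dusp2, Atp10a, Slc1a5 and Hunk, with differences of 0.16, 0.22, 0.28, 0.31 and 0.33 on the log2 scale. Dusp2 encodes a nuclear phosphatase of MAP kinases. Fam13c, the closest, deviated by 1.84, 1.41, 2.48 and 2.76 in Ctnnb1OE-EC replicates 1 to 4, where Myc deviated by 1.85, 1.45, 2.78 and 2.78. The rows most like Mycn were Glb1l3, Tril, Pi16, Kif21b and Prxl2a, with differences of 0.16, 0.26, 0.28, 0.30 and 0.31. Glb1l3 deviated by 1.94, 1.08, 1.46 and 0.88, with the highest value in replicate 1 as for Mycn. The lists of nearest rows had no gene in common. Likeness over 8 samples of 2 groups mainly reflects the size of the difference between the groups, and these are descriptions with no test.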

How the data were processed

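RNA of 8 LSEC samples (4 Ctrl, 4 Ctnnb1OE-EC) was hybridized to Affymetrix MoGene-2_0-st arrays. Per the study's methods, probes were grouped by Entrez gene (Custom CDF, version 22), background was corrected by robust multiarray analysis (RMA, also named in the submitters' processing notes) and arrays were quantile normalized. The authors deposited log2 values. Signals of different genes depend on their probes, so differences between the groups were taken within a gene. The summed linear values and the comparisons with the background set different genes beside one another, so they are only rough guides to level. Symbols were given by the platform annotation to 24705 of 25428 rows, and 723 were tested without a name. A few listed genes are not reported here.

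Group means were tested by limma 3.58.1 under R 4.3.3 (eBayes without trend, two-sided, no filter, no added normalization), with p-values adjusted by Benjamini-Hochberg across the 25428 rows and called under 0.05, and by a two-sided exact permutation test over 70 assignments of the samples. An analysis of variance per gene, the kind of test in the study's methods, was an alternative, as were a trended robust prior, array weights, renormalization, centring, filters on dim rows, the replicate number as a block, and samples left out. The code was tested on simulated data. The number of arrays limits the precision.

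Named were all members, up to 4 genes of a list with the smallest p and all past the threshold, and the 5 rows most like each called member. Fbxw7, Odc1, Ddx18 and the genes of the promoter search were named outside that rule after their values were seen. The members and lists were chosen with earlier results of these data known. Promoter windows are from RefSeq. No pair of samples was identical. The replicate numbers were not treated as pairs in the main fit, since the labels do not say whether they pair the samples.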

Additional observations from a re-analysis of the deposited data

Results flagged for a closer look

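Among 20 groups of 4 values, 2 for each of the 10 members, 3 held a sample whose gap to the nearest of the others, divided by the range of the group, exceeded Dixon's 95% critical value for 4 samples. Chance alone flags about 1 in 20. For Mycn, Ctrl replicate 3 gave 4.57 and the other Ctrl samples 4.43 to 4.44. For Mxi1, the same sample gave 6.74 and the others 6.55 to 6.58. For Mycl, Ctnnb1OE-EC replicate 1 gave 3.21 and the others 2.67 to 2.72, all below the array background.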

How the results depend on the processing

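The rows past the threshold numbered 234, and 20 by analysis of variance, 86 with the replicate number as a block, 61 without Ctnnb1OE-EC replicates 3 and 4, 386 at an adjusted threshold of 0.1 and 92 to 223 with 1 sample left out. The members past it numbered 2, and 0, 1, 2, 2 and 1 to 2 in these settings. Myc lost its call only by analysis of variance (log2 fold change 2.22, adjusted p = 0.0945) and ranged from 2.03 to 2.47 with 1 sample left out. Mycn lost it by analysis of variance (1.46, adjusted p = 0.122), with the replicate block (1.46, adjusted p = 0.0576 in limma) and in 4 of the 8 fits with 1 sample left out (1.24 to 1.63 over all 8). The deviations of same-numbered samples correlated at 0.25, -0.18, 0.03 and -0.15. The labels do not say whether the numbers pair the samples, and such correlations cannot decide it. The main fit used no block. With the block, Fbl (adjusted p = 0.127 in limma) and Slc1a5 (0.119) also lost their calls. Cdk4 passed with a trended robust prior (adjusted p = 0.0249 in limma) and among the rows from the median up (0.0400).

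The sign of small differences changed without 1 sample in Mycl (-0.17 to 0.0134), Max (-0.0927 to 0.00688), Mxd4 (-0.10 to 0.0645), Mga (-0.0157 to 0.12) and Mlxipl (-0.23 to 0.19), and without Ctnnb1OE-EC replicates 3 and 4 in Mycl (0.0902), Mga (-0.0391) and Mlxipl (0.469). The median log2 fold change also changed sign without 1 sample in the genes repressed by MYC (-0.09 to 0.09), the MXD and MNT corepressors (-0.01 to 0.05) and the network partners (-0.23 to 0.07). The cause was not tested. Filters on dim rows left 9 or 8 members, without Mycl and, in the stricter one, Mxd3. Of all called rows, 58.1% were higher in Ctnnb1OE-EC, 70.0% by analysis of variance and 68.6% with the block. Renormalizing and centring changed no call of a member. Values near the array background, as in Mycl and Mxd3, limit what these rows can show.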
